A study of Bos grunniens with 3 samples.

Results

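Immediate early genes are switched on within minutes of a signal, without new protein synthesis, and most of them encode transcription factors or regulators of mRNA decay. In skin they respond to growth factors, wounding, ultraviolet light and tissue damage, and several of them also belong to the responses to unfolded protein, amino acid shortage and DNA damage. The 8 genes described here cover these functions: the AP-1 and ATF family factors *FOSB* and *ATF3*, the small Maf protein *MAFF*, the nuclear receptor *NR4A2*, the nuclear protein *CSRNP1*, the antiproliferative proteins *BTG2* and *TOB1*, and the C/EBP family factor *DDIT3*, also called CHOP. They were found by symbol among the 26924 genes of the deposited gene list, 15765 of which carry a symbol, and each of the 8 symbols matched 1 gene (*ATF3*, ENSBGRG00000021213; *BTG2*, ENSBGRG00000026320; *CSRNP1*, ENSBGRG00000008132; *DDIT3*, ENSBGRG00000007918; *FOSB*, ENSBGRG00000022164; *MAFF*, ENSBGRG00000002378; *NR4A2*, ENSBGRG00000007951; *TOB1*, ENSBGRG00000009103). The 8 were selected on their levels in these 3 libraries, which were already known, so the ratios between libraries are a description and were not tested.

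The study asked how the cells of the hair follicle differ between anagen and catagen in the hair cycle, in which follicles grow (anagen), regress (catagen) and rest (telogen). Its paper describes no telogen library, so what is said here of the telogen library rests on its labels and counts alone. Scapular skin of healthy Tianzhu white yak (*Bos grunniens*) of about 2 years was loosened with dispase at 37 °C for 2 h, single follicles were pulled out, and trypsin for 0.5 h released the cells, a wording that the labels give for all 3 stages. For each stage 1 single-cell 3′ library was made, and the sources used here do not say which animal went into which library. The catagen library takes its stage from its title and stage label, whereas its protocol text names anagen. The stage, the animal, the day of handling and the Cell Ranger version in the file header (anagen 4.0.0, catagen 3.1.0, telogen 6.0.2) therefore cannot be told apart, and no value below has a replicate.

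The anagen library held 12000 cells and 82862998 unique molecular identifiers (UMIs, 1 for each captured mRNA), the catagen library 12124 cells and 51647865 UMIs, and the telogen library 14573 cells and 103511775 UMIs. The median cell had 5251.5, 3339.5 and 5561 UMIs, respectively, and no anagen cell had fewer than 2404 UMIs, whereas 4104 of the 12062 catagen and 3953 of the 14502 telogen cells kept did. Barcodes shared by any pair of libraries numbered 40 to 49. Markers of other cell types were scarce beside the epidermal basal markers (12640, 15121 and 22948 CPM, a gene's UMIs scaled to the same total in every library, in anagen, catagen and telogen): the summed levels were 60.9, 164 and 115 CPM for 5 immune markers, of which *CD52* was at 0 in every library, 11.8, 4.77 and 7.05 CPM for 5 endothelial markers, and 38.2, 0.854 and 4.29 CPM for 5 mesenchymal markers. Most of the immune sum was *CD74*, at 51.1, 158 and 88.6 CPM, whereas *AIF1* had 8.88, 4.89 and 25.4 CPM. The immune sum therefore gives no order of immune cells between the libraries. The part of these other cell types in the results was not tested.

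Summed over the cells of each library, the 8 genes took 1955 CPM in anagen, 2185 CPM in catagen and 718 CPM in telogen. All 8 had their lowest level in the telogen library, from 1.11-fold below anagen for *BTG2* to 6.04-fold below it for *NR4A2*, and the ranking of anagen and catagen differed from gene to gene. The median of all genes with at least 10 CPM in either library was also lower in telogen, with log2 ratios of −0.18 over anagen and −0.25 over catagen. The share of all genes that are lowest in telogen was not counted, so nothing is read from the 8 of 8. A 3′ UMI level is not divided by length, so levels are compared between libraries and cell types for 1 gene and not between genes. The 95% Poisson intervals of the levels were narrow because each level rests on at least 1073 UMIs. These intervals, like all others given here, cover counting error and not the spread between animals or preparations.

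*FOSB* and *ATF3* encode basic leucine zipper proteins: FOSB pairs with JUN proteins in the AP-1 complex, and ATF3 is a stress-induced member of the ATF/CREB family. *ATF3* had 588 CPM in anagen (95% interval 583 to 593), 744 CPM in catagen (737 to 752) and 210 CPM in telogen (207 to 213). *FOSB* had 370.1, 484 and 162 CPM in the same order. Both were somewhat higher in catagen than in anagen, by log2 ratios of 0.34 and 0.39, and both were lowest in telogen, with log2 ratios of telogen over anagen of −1.48 and −1.19. *MAFF*, which lacks a transactivation domain and binds DNA together with other leucine zipper proteins, had 47.3 CPM in anagen, 55.9 CPM in catagen and 10.4 CPM in telogen. Its log2 ratio of telogen over anagen was −2.19 (95% interval −2.29 to −2.09).

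*NR4A2*, an orphan nuclear receptor that needs no hormone for its activity, differed most between telogen and the other libraries. Its level was 211 CPM in anagen (17442 UMIs), 252 CPM in catagen (12996 UMIs) and 34.9 CPM in telogen (3608 UMIs). This is a 6.04-fold difference between anagen and telogen and a 7.23-fold difference between catagen and telogen. *CSRNP1*, a nuclear protein known as a target of AXIN1, was 268 CPM in anagen, 173 CPM in catagen and 80.9 CPM in telogen, so that its order was anagen, catagen, telogen.

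*BTG2* and *TOB1* belong to the same family, whose proteins slow proliferation and recruit the CCR4-NOT deadenylase to mRNA, and they did not share a pattern. *BTG2* had 41.1 CPM in anagen, 132 CPM in catagen and 37.2 CPM in telogen. It stood alone in being 3.21-fold higher in catagen than in anagen, while anagen and telogen differed by a log2 ratio of −0.15 that turned to 0.10 under median-of-ratios scaling. *TOB1* had 298 CPM in anagen, 249.7 CPM in catagen and 106 CPM in telogen. *DDIT3*, the transcription factor induced when the endoplasmic reticulum is stressed, had 132, 93.6 and 76.8 CPM. Of the 8 genes it differed least between catagen and telogen, by a log2 ratio of −0.29 that changed sign to 0.22 under median-of-ratios scaling.

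**Figure D1:**
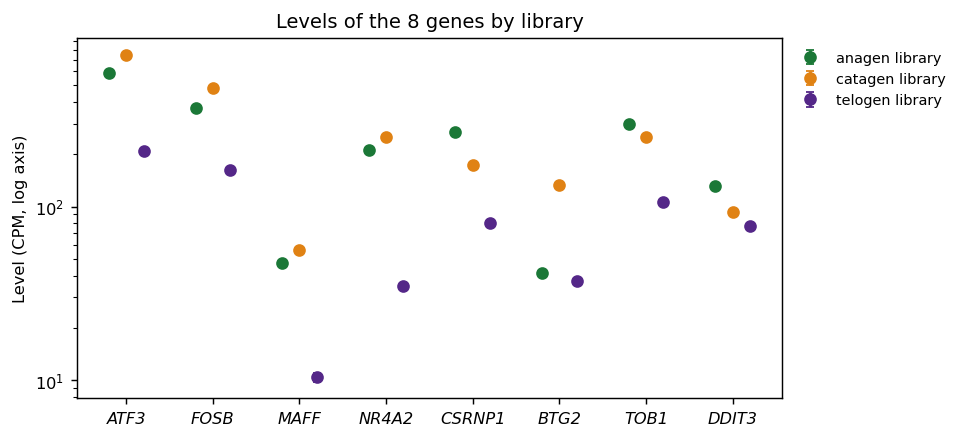
Level of each of the 8 genes in CPM (log axis) in the anagen (green), catagen (orange) and telogen (purple) library. Points are CPM of summed UMIs and the bars, mostly hidden by the points, are 95% Poisson intervals; all 8 genes are lowest in telogen under this scaling, *NR4A2* with 34.9 CPM against 211 and 252 CPM, whereas *BTG2* in telogen is above anagen and *DDIT3* in telogen is above catagen under median-of-ratios scaling.

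A 2-fold limit puts these ratios beside those of all genes with at least 10 CPM in one of the libraries compared. Between telogen and anagen, 6 of the 8 were at least 2-fold lower in telogen, all but *BTG2* and *DDIT3*, against 7.83% of 5733 genes, and the median log2 ratio of the 8 was −1.49 against −0.18 for all genes. Between telogen and catagen, 7 were at least 2-fold lower in telogen, all but *DDIT3*, against 12.0% of 5971 genes, and 0 were at least 2-fold higher, against 4.10%, with medians of −1.70 and −0.25. Both comparisons share the telogen library, and the genes were chosen with these contrasts known, so nothing is read from the counts. Under median-of-ratios scaling 5 of the 8 were past the limit in each comparison, against 4.50% of all genes for anagen and 3.13% for catagen, since *FOSB* lost it against anagen (−0.95) and *CSRNP1* (−0.59) and *TOB1* (−0.73) lost it against catagen.

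Between catagen and anagen, 1 gene, *BTG2*, was at least 2-fold higher in catagen, against 4.41% of 6054 genes, and 0 were at least 2-fold lower, against 3.47%. The other 7 lay within log2 ratios of −0.64 (*CSRNP1*) and 0.39 (*FOSB*), and the median of the 8 was 0.25 against 0.05 for all genes. *NR4A2*, *MAFF*, *ATF3* and *FOSB* were higher in catagen, although *MAFF* reached −0.01 and *NR4A2* 0.01 under median-of-ratios scaling. *CSRNP1*, *DDIT3* and *TOB1* were lower in catagen under every scaling tried.

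The levels could differ because more cells held the mRNA or because each of these cells held more, so the share of cells with at least 1 UMI was read at an equal depth of 1500 UMIs per cell, drawn at random, which kept 11987 anagen, 9799 catagen and 11570 telogen cells and left out 0, 2263 and 2932 shallower ones. *ATF3* was seen in 45.1% of anagen, 45.6% of catagen and 18.9% of telogen cells (before thinning 71.1%, 56.5% and 35.8%). *NR4A2* was seen in 22.9%, 20.9% and 4.42% of cells (before thinning 47.9%, 31.8% and 13.1%). Thus the shares followed the levels in telogen, whereas the gap between anagen and catagen before thinning moved with depth. *BTG2* was seen in 5.58% of anagen, 14.5% of catagen and 4.82% of telogen cells after thinning, and *MAFF* in 6.68%, 7.66% and 1.59%.

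*FOSB* was seen in 37.2%, 40.9% and 19.6% of thinned cells, *TOB1* in 33.2%, 27.3% and 13.6%, *CSRNP1* in 30.5%, 20.2% and 10.1%, and *DDIT3* in 16.4%, 11.9% and 10.1%. Cells in which a gene was seen also held fewer UMIs of it in telogen: for *ATF3* the mean was 2.07 in anagen, 2.42 in catagen and 1.58 in telogen, and for *NR4A2* it was 1.51, 1.72 and 1.24. Both the share of cells in which they were seen and the mean UMIs in those cells were therefore lower in telogen for these 2 genes. A lower level in every cell would lower both measures in thinned cells. They therefore cannot tell fewer cells with the mRNA from less mRNA in each cell. No cell type is known to lack these genes, so the cluster with the lowest share stands in as a rough guide to the background from free RNA. It is not an upper limit for other clusters, since free RNA can be a larger part of the UMIs in shallower cells. The lowest clusters differed in depth between libraries, for *NR4A2* with a median of 7060 UMIs in anagen and 11270 UMIs in telogen. This lowest share ran from 1.62% (*MAFF*) to 15.5% (*TOB1*) in anagen, from 1.92% (*DDIT3*) to 14.4% (*TOB1*) in catagen and from 0% (*MAFF*) to 4.99% (*TOB1*) in telogen, and it was higher in anagen than in telogen for all 8 genes. For *ATF3* it was 15.01%, 13.1% and 3.45% in anagen, catagen and telogen, and for *NR4A2* 5.08%, 4.19% and 0.641%, both below the shares in the whole libraries. For *DDIT3* in telogen it was 4.69%, beside 10.1% in the whole library. *MAFF* was seen in 0 of 112 inner root sheath-like telogen cells, which allows a share of up to 3.24% (exact binomial interval), above its 1.59% in the whole library. It was also seen in 0 of 156 hair cortex-like (up to 2.34%) and 0 of 128 keratinocyte-like telogen cells (up to 2.84%). In the larger cluster 9 it was seen in 1 of 501 telogen cells, which allows up to 1.11%, below 1.59%. The part of free RNA in the shares was not tested.

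The cells of the 3 libraries were integrated and clustered without the listed genes among the variable genes, which gave 25 clusters, 13 of which could be named from markers. The names follow the study where it has one: IFE-DC for differentiated cells of the interfollicular epidermis, HS for cells with *LHX2*, *IGFBP5* and *SPARC*, IRS for inner root sheath and DS for dermal sheath. The DS-like label of cluster 15 rests on raised *ACTA2*, *TAGLN* and *MYL9*, while *TPM2* and *CNN1* were not raised. That cluster held 312 catagen cells (2.59%), in a library with 0.854 CPM of the 5 mesenchymal markers. No dermal origin is read from its label. In the anagen library *NR4A2* ranged from 29.99 CPM in hair cortex-like cells (cluster 14) to 618 CPM in HS-like cells (cluster 4), the widest range of the 8 genes there, at 20.6-fold. The next level of *NR4A2* was 359 CPM, in an unnamed cluster led by *EMP3* and *SCUBE2* (cluster 0). In catagen its highest level was in an unnamed cluster led by *KRT1* and *FGFBP1* (cluster 2), at 487 CPM, and the HS-like cluster 4 had 296 CPM.

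*ATF3* was highest in the *KRT79* cluster (cluster 3) in anagen, at 1070.0 CPM, and in IFE-DC-like cells that express *KRT1* and *AREG* (cluster 6) in catagen and telogen, at 1620 and 497 CPM. *FOSB* was highest in cluster 0 in both anagen (749 CPM) and catagen (793 CPM). Hair cortex-like cells (cluster 14) had the lowest *ATF3* level in anagen and in catagen, at 118 and 143 CPM, and the lowest *NR4A2* level in all 3 libraries. In the same cells *TOB1* was near the top of its range, at 459.7 CPM in anagen, 403 CPM in catagen and 280.0 CPM in telogen, each the second highest level among the clusters of that library. The 8 genes thus did not share 1 order of cell types. The ratio of *NR4A2* to *TOB1* ran from 0.0652 (cluster 14) to 2.47 (cluster 4) in anagen and from 0.0212 to 0.959 across the same clusters in telogen.

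*MAFF* was highest in the second IFE-DC-like cluster (cluster 16, with *KRT77* and *KLK5*) in anagen, at 133 CPM, and had 154 CPM there in catagen. Cells with immune markers (cluster 23) were numerous enough only in telogen, where 50 cells had the highest level among the clusters for *FOSB* (529 CPM), *CSRNP1* (381 CPM), *DDIT3* (200.1 CPM), *MAFF* (83.9 CPM) and *NR4A2* (77.5 CPM). These cells made up 0.345% of the telogen cells, and their levels rest on few UMIs. The 95% interval of *FOSB* (82 UMIs, 421 to 657 CPM) lay above the next cluster (273 CPM), whereas those of *CSRNP1* (59 UMIs), *DDIT3* (31 UMIs), *MAFF* (13 UMIs) and *NR4A2* (12 UMIs) spanned it. A mixed cluster with *COL1A2* and *PECAM1* (cluster 21, 97, 50 and 52 cells) had 261 CPM of *BTG2* (29 UMIs, 95% interval 175 to 375 CPM) and 198 CPM of *MAFF* (22 UMIs, 124 to 300.3 CPM) in catagen. These intervals spanned the levels of the next clusters, 244 CPM of *BTG2* in cluster 6 and 154 CPM of *MAFF* in cluster 16, so no order is read from them.

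**Figure D2:**
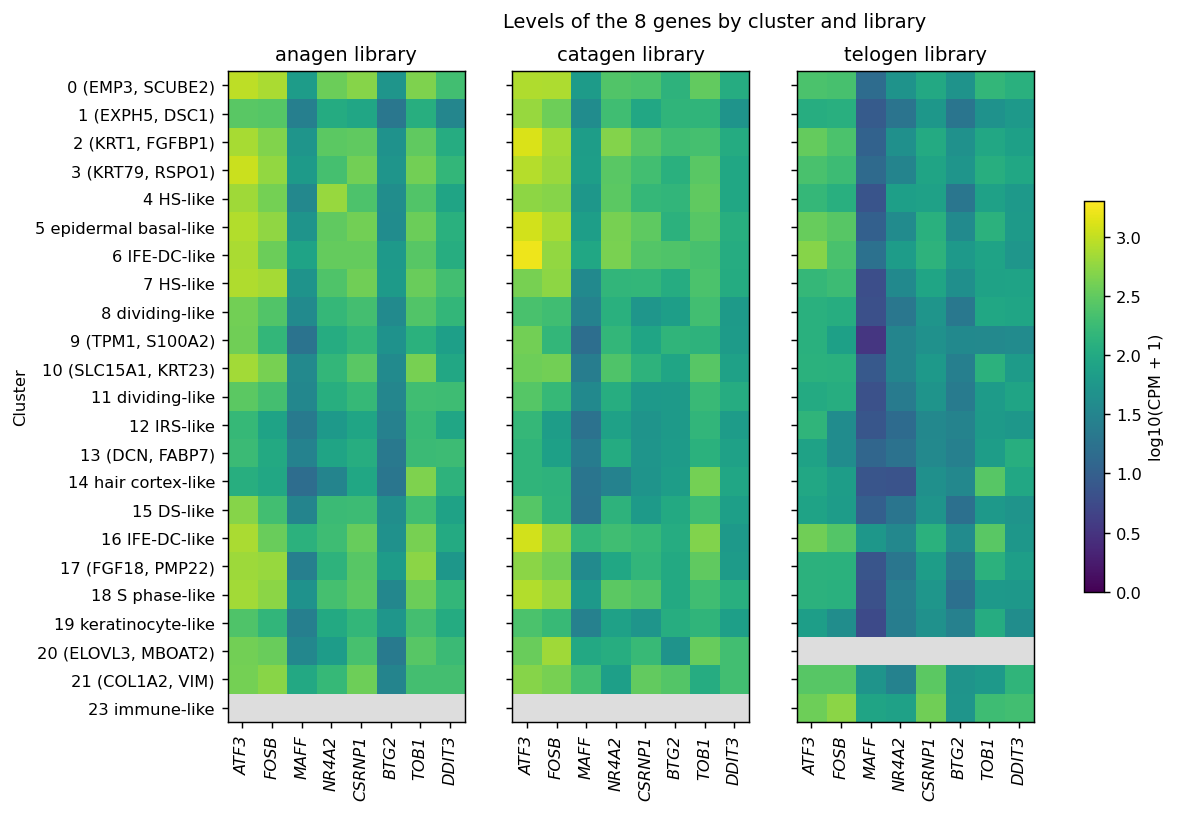
Level of each gene as log10(CPM + 1) in each cluster (rows, with the name or the first 2 leading genes) in the anagen, catagen and telogen library; grey marks fewer than 50 cells. The telogen panel is darker for most genes and clusters, with exceptions for *BTG2* and *DDIT3*. Hair cortex-like cells (cluster 14) are dark for *NR4A2* and bright for *TOB1*, and *NR4A2* stands out in HS-like cells (cluster 4) in anagen at 618 CPM.

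A different makeup of the libraries would alter a summed level without any change within a cell type, so each ratio was taken within clusters that had at least 50 cells in both libraries. Telogen was lower than anagen in 160 of 168 pairs of a gene and a cluster, against 58.5% of all such pairs over all genes, and at least 2-fold lower in 119, against 11.2%. Telogen was lower than catagen in 161 of 168 pairs, against 61.8%, and at least 2-fold lower in 118, against 17.7%. The clusters come from the same 3 libraries and are not replicates. The difference seen in the summed libraries was therefore present in nearly every cluster.

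*NR4A2* was at least 2-fold lower in telogen than in anagen in 21 of 21 clusters, with log2 ratios of −3.30 (DS-like, cluster 15) to −1.79 (cluster 9), and *MAFF* in 20 of 21. The other counts at this limit were 19 for *CSRNP1*, 18 for *TOB1*, 16 for *ATF3* and 16 for *FOSB*. *DDIT3* reached it in 5 clusters and *BTG2* in 4. The 8 exceptions with a higher level in telogen than in anagen were 6 clusters for *BTG2*, up to 0.85 in hair cortex-like cells (19.0 against 34.2 CPM), and 2 clusters for *DDIT3*, up to 0.90 in cluster 1 (31.9 against 59.4 CPM), where the first value is anagen. Among the ratios of telogen over anagen, only these 2, of *BTG2* in cluster 14 and *DDIT3* in cluster 1, had a 95% interval above 0. Cluster 1 held shallow cells in catagen and telogen, with medians of 763.5 and 1010 UMIs against 3908 in anagen. The median log2 ratio of telogen over anagen over 4719 genes in cluster 1 was 0.71, against −0.19 over 5551 genes in cluster 14. The ratio of *DDIT3* in cluster 1 was thus near that of the median gene there.

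Clusters differed in how far telogen was below anagen. In S phase-like cells (cluster 18) all 8 genes were at least 2-fold lower, against 11.6% of genes in that cluster, with a median log2 ratio of −2.45. In hair cortex-like cells (cluster 14), 3 of the 8 were, against 6.40% of genes, with a median of −0.61. IFE-DC-like cluster 16 also had 3 of 8, against 12.3% of genes, with a median of −0.95. HS-like cluster 7 had 7 of 8, against 9.22%, with a median of −2.15. The mixed cluster 21 had 2 of 8, against 20.7%, with a median of −0.72. Whether these medians differ beyond the spread between animals cannot be told from 1 library per stage.

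Catagen was lower than anagen in 96 of 176 pairs, against 44.3% of all such pairs over all genes, and the direction depended on the gene. *BTG2* was higher in catagen in 22 of 22 clusters and at least 2-fold higher in 18, against 11.1% of all pairs of a gene and a cluster, with a median log2 ratio of 1.34. *CSRNP1* was lower in catagen in 21 of 22 clusters and at least 2-fold lower in 10, against 7.51% of pairs, with its lowest ratio of −1.95 in dividing-like cells (cluster 8; 207 against 53.7 CPM). *TOB1* was lower in 17 and *DDIT3* in 18 of the 22 clusters, whereas *ATF3*, *FOSB*, *MAFF* and *NR4A2* were lower in 13, 9, 8 and 10. *ATF3* was higher in catagen in IFE-DC-like cluster 6 (763 against 1620 CPM) and lower in HS-like cluster 7, where its log2 ratio was −0.97.

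**Figure D3:**
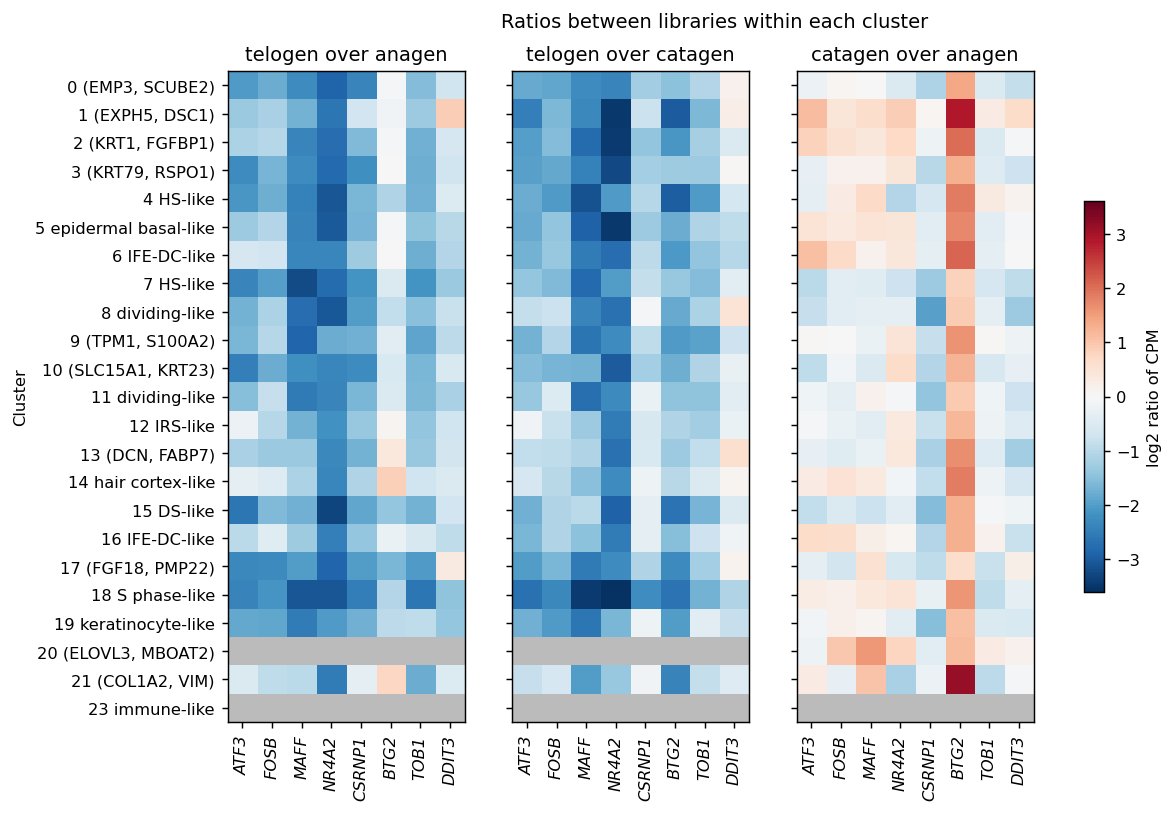
Log2 ratio of CPM between libraries for each gene (columns) within each cluster (rows); blue is lower and red is higher in the library named first, and grey marks fewer than 50 cells in a library. *NR4A2* is blue in all 21 clusters of both telogen panels, *BTG2* is red in all 22 clusters of the catagen over anagen panel, and the exceptions in the telogen panels belong to *BTG2* and *DDIT3*; the colours are for scaling by totals.

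Depth within a cluster was set beside the levels by splitting the cells of each cluster and library at their median UMI count. In anagen the shallower cells had slightly higher CPM for all 8 genes, with log2 ratios of 0.09 (*BTG2*) to 0.37 (*FOSB*), of which those of *BTG2* and *MAFF* had 95% intervals that spanned 0. In catagen the shallower cells were lower for 6 of 8, down to −0.40 for *NR4A2*, and in telogen for 4 of 8, down to −0.40 for *ATF3*. Each was smaller in size than the log2 ratio of telogen over anagen of the same gene, except for *BTG2* in telogen (−0.22 against −0.15). Beside the smaller log2 ratios of catagen over anagen, *NR4A2* in catagen was larger in size (−0.40 against 0.26). *FOSB* in anagen was close (0.37 against 0.39), and the other anagen and catagen values were smaller.

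Co-detection was read in the thinned cells, against the number expected if the 2 genes of a pair were seen independently within each cluster. All 28 pairs were seen together more often than expected in each library. The median ratio of observed to expected was 1.17 in anagen (1.03 to 1.35), 1.31 in catagen (1.19 to 1.62) and 1.83 in telogen (1.33 to 2.70). Of 28 pairs of 8 heat shock genes, described below, 20, 25 and 24 were above expectation in the same order. Their medians were 1.004, 1.02 and 1.02, so the count of pairs above expectation alone says little. One of these genes, *HSP90AA1*, had 3827, 3441 and 3537 CPM in the same order. The ratio has little room to rise for genes seen in most cells, so these medians are not set against those of the 8. The pair *NR4A2* and *CSRNP1* was seen in 151 telogen cells where 55.8 were expected, in 750 catagen cells where 477 were expected, and in 1154 anagen cells where 932 were expected. *ATF3* and *FOSB*, the most often seen pair, met in 2674 anagen, 2600 catagen and 818 telogen cells, against 2216, 2068 and 476 expected.

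A ratio of counts can rise only a little when both genes are frequent, so odds ratios pooled over clusters by the Mantel-Haenszel method were also taken. Their medians over the 28 pairs were 1.35 in anagen, 1.84 in catagen and 2.40 in telogen. The odds ratio was higher in catagen than in anagen for 28 of 28 pairs, higher in telogen than in anagen for 28, and higher in telogen than in catagen for 24. The highest were *ATF3* with *FOSB* in anagen (2.13), *ATF3* with *CSRNP1* in catagen (3.13) and *NR4A2* with *CSRNP1* in telogen (3.90). The 3 lowest pairs in telogen all included *DDIT3*, where *MAFF* with *DDIT3* had 1.498. The pairs share genes and cells, so their number is no measure of certainty.

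The number of the 8 genes seen in a cell sums up the same pattern. None of the 8 was seen in 17.7% of thinned anagen, 24.5% of catagen and 50.9% of telogen cells, where independence within clusters gave 11.8%, 13.5% and 41.8%. At least 3 genes were seen in 34.8%, 33.4% and 8.63% of cells (expected 32.4%, 29.9% and 4.29%), and at least 5 in 5.60%, 6.94% and 0.942% (expected 2.90%, 2.53% and 0.0505%). In telogen 109 cells held at least 5 of the 8 genes, where 5.84 cells were expected. Detection in telogen was thus rarer for each gene and more concentrated in the same cells, relative to expectation, than in the other libraries.

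The share of cells with *ATF3*, by the number of the other genes seen and not held within clusters, is given for a single gene. Among telogen cells with none of the other 7 genes *ATF3* was seen in 10.5%, and among those with at least 3 of them in 56.1% (303 of 540 cells). The corresponding shares were 25.8% and 64.4% in anagen, and 20.02% and 74.9% in catagen. No order of telogen and catagen is read from these shares. Within clusters, the odds ratio of *ATF3* with *FOSB* was lower in telogen (2.88) than in catagen (3.06), whereas that with *CSRNP1* was higher (3.67 against 3.13). *DDIT3* moved less, from 7.77% to 20.8% in telogen and from 11.3% to 21.2% in anagen.

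Cells with at least 3 of the 8 genes were unevenly spread over the clusters. In anagen they made up 59.4% of cluster 0 and 49.9% of epidermal basal-like cells (cluster 5), and in catagen 56.8% of IFE-DC-like cluster 6. Hair cortex-like cells were low in each library, at 10.9%, 9.42% and 2.56%. In telogen the highest share was 16.02%, in IFE-DC-like cluster 16, which had 46.6% in anagen and 49.8% in catagen. No telogen cluster with at least 50 thinned cells reached the share of its anagen counterpart.

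**Figure D4:**
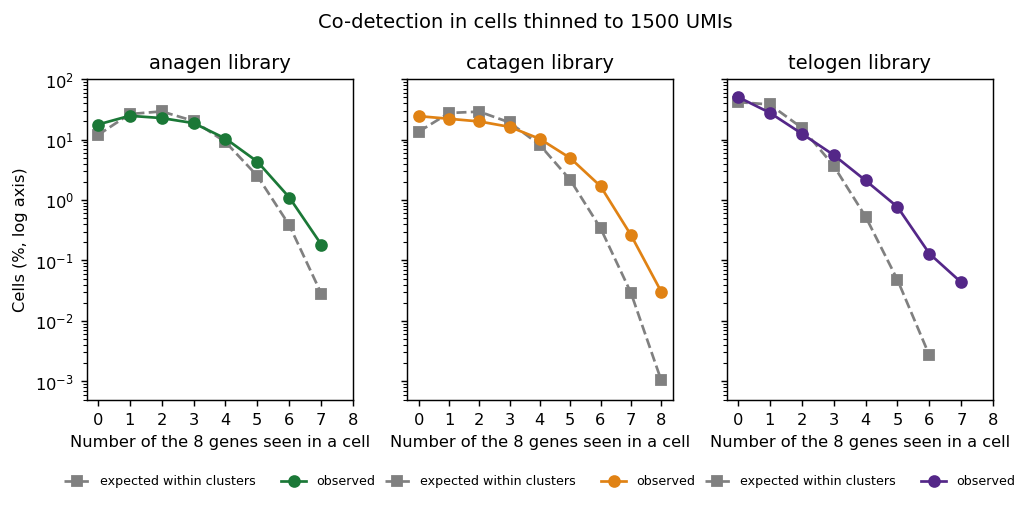
Percent of cells (log axis) by the number of the 8 genes seen, in cells thinned to 1500 UMIs, for each library; coloured circles are observed and grey squares are expected from independent detection within clusters. From 4 to 7 genes the observed percentages are above the expected ones in each library, and the gap is widest in telogen, where the expected value for 7 genes is too small to be drawn.

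Other genes with the same functions were read from lists, some of which share genes. Of 39 other immediate early genes 35 had a row and 26 had at least 10 CPM in telogen or anagen. Of these, 12 were at least 2-fold lower in telogen, against 7.83% of all genes, and the median log2 ratio was −0.85. The count at least 2-fold higher was 0. The share of all genes is not given for it, so nothing is read from that count. Under median-of-ratios scaling 9 were lower, against 4.50%. The lowest were *HBEGF* (−2.54), a growth factor of the EGF family, *NR4A1* (−1.81), the closest relative of *NR4A2*, and *KLF6* (−1.50), *DUSP6* (−1.39) and *CITED2* (−1.38). Against catagen 16 of 26 were at least 2-fold lower in telogen, against 12.0% of all genes. This dropped to 7 under median-of-ratios scaling, against 3.13%. Under scaling by totals 0 were at least 2-fold higher, against 4.10%, and the median was −1.19. *FOS*, the best known early response gene, had 775 CPM in anagen, 1645 CPM in catagen and 766 CPM in telogen, a log2 ratio of telogen over anagen of −0.02. *DUSP1*, a phosphatase that acts on MAP kinases and is named here after its values were seen, had 379, 641 and 448 CPM, a log2 ratio of 0.24.

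*FOS* was higher in catagen than in anagen in 21 of 22 clusters, and lower in telogen than in anagen in 14 of 21. *JUN*, the usual partner of FOS proteins, had 2472, 3179 and 1076 CPM and was lower in telogen than in anagen in 21 of 21 clusters, as was *JUND* with 1236, 1436 and 492 CPM. Between catagen and anagen, 5 of 27 of the list were at least 2-fold higher in catagen (*IER2*, *FOS*, *CCN1*, *JUNB* and *MCL1*, log2 ratios 1.004 to 1.09), against 4.41% of all genes, none of them under median-of-ratios scaling. In the other direction 2 were at least 2-fold lower, *IRF1* (−1.32) and *HBEGF* (−1.22), against 3.47% of all genes. *KLF6* had 2259.99, 1183 and 801 CPM, an order like that of *CSRNP1*.

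The other stress lists were nearer to the median of all genes. Of all genes, 7.83% were at least 2-fold lower in telogen than in anagen and 12.0% were lower than in catagen. Under median-of-ratios scaling these shares were 4.50% and 3.13%. The shares of all genes at least 2-fold higher are not given for that scaling, so nothing is read from the counts of higher genes under it. Under scaling by totals this share is not given for telogen over anagen. Nothing is read from the genes called higher in that comparison either. Of 15 heat shock genes listed 8 had a row. *HSPA1A*, *HSPA1B*, *HSPB1*, *HSPE1*, *HSPD1*, *DNAJB1* and *DNAJA1* had none, so the list says nothing about them. Of the 8, *HSPB8* was at least 2-fold lower in telogen than in anagen (39.4 against 18.03 CPM) and the median was −0.06. Ratios below 0 numbered 5 of 8, and the highest was 0.98, for *HSPH1*, which is named here after its values were seen. Against catagen 0 of 8 were past the limit and the median was −0.04. Under median-of-ratios scaling 0 were at least 2-fold lower and 1 was at least 2-fold higher in telogen in both comparisons. Among integrated stress and unfolded protein response genes, to which *DDIT3* belongs by function, 12 of 21 had a level in telogen or anagen and the median was −0.33. *SLC7A5* (−1.56), an amino acid transporter, and *HSPA5* (−1.17), the main chaperone of the endoplasmic reticulum, were at least 2-fold lower and *NUPR1* (1.22) was higher, and under median-of-ratios scaling 1 gene was lower and 1 higher. *HSPA5* had 1502 CPM in anagen, 911 CPM in catagen and 668 CPM in telogen, the same order as *DDIT3*. The list did not share this order: of 14 genes with a level in catagen or anagen, 7 were lower in catagen, with a median of 0.12.

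*BTG2* is also a target of p53. Of 13 p53 target genes with a row 7 had a level in telogen or anagen, with a median of −0.47. *GADD45A* (−1.77) and *PLK3* (−1.34) were at least 2-fold lower in telogen, against 7.83% of all genes. *CCNG1* was 2.03-fold higher in catagen than in anagen, which fell short of 2-fold under median-of-ratios scaling, and *AEN* (−1.99) and *PLK3* (−1.25) were at least 2-fold lower, a count that went from 2 to 3 under that scaling. Of all genes, 4.41% were at least 2-fold higher and 3.47% at least 2-fold lower in catagen under scaling by totals. The shares under median-of-ratios scaling are not given, so nothing is read from the move from 2 to 3. Among 23 relatives and partners of the 8 genes 12 had a level in telogen or anagen, with a median of −0.43. *NR4A1* and *TOB2* (−1.52) were at least 2-fold lower in telogen, against the same 7.83% of all genes. *TOB2*, the closest relative of *TOB1*, had 36.8, 45.0 and 12.9 CPM, so its highest level was in catagen. Of 9 oxidative stress target genes 3 had a level in telogen or anagen, where *TXNRD1* was lower (−1.72), against 7.83% of all genes. *PRDX1* was higher (1.11), for which no share of all genes is given.

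**Figure D5:**
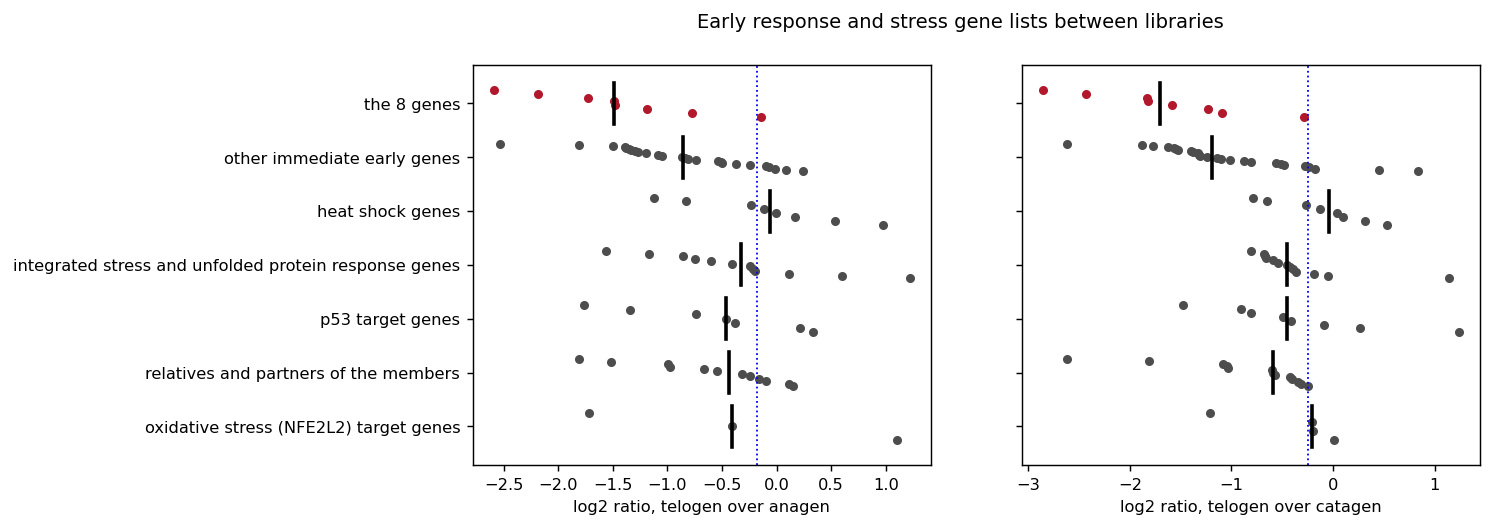
Log2 ratio of telogen over anagen (left) and telogen over catagen (right) for the 8 genes (red) and each list of genes with at least 10 CPM in one of the libraries (grey); black bars are medians and the dotted line is the median of all genes (−0.18 and −0.25). The medians of the 8 genes lie at −1.49 and −1.70, those of the other immediate early genes at −0.85 and −1.19, and those of the heat shock genes at −0.06 and −0.04, all on scaling by totals.

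Genes with a like pattern were found by the Pearson correlation of log2(CPM + 10) with the mean of the 8 genes over 66 sums of a cluster in a library, among 5002 genes. The sums share 3 libraries and the r values are a description. The highest were *JUN* (0.95), *JUND* (0.93), *TIPARP* (0.89), *DYRK3* (0.88), *CCNL1* (0.87), *LONRF1* (0.86), *AFF4* (0.86), *PNRC1* (0.85), *BRD2* (0.85) and *EGR1* (0.85), apart from the 8 themselves. Against the mean of the other 7, *ATF3* had 0.92, *FOSB* 0.89, *CSRNP1* 0.86, *MAFF* 0.85, *NR4A2* 0.83, *TOB1* 0.67, *BTG2* 0.55 and *DDIT3* 0.47. The first 5 thus each followed the mean of the other 7 most closely over cell types and libraries, and *BTG2* and *DDIT3* least. The sums include the differences between libraries. These r values are therefore not independent of the ratios between libraries, in which *BTG2* and *DDIT3* stood apart.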

How the data were processed

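The authors deposited 1 matrix of raw UMI counts per library (genes by cell barcodes, in Cell Ranger format, not normalized). The labels name Cell Ranger 2.1.1 and the file headers other versions, and the genome build is not given in the sources used here. Barcodes with fewer than 200 detected genes were left out, which kept 11987 anagen, 12062 catagen and 14502 telogen cells. UMIs were summed per library, or per cluster of at least 50 cells, and given as CPM. Levels carry exact Poisson intervals, ratios exact conditional binomial intervals and shares Clopper-Pearson intervals, all at 95%. With 1 library per stage no p-value was computed, and 3′ UMI counts were not used to rank genes against each other. Before shares and co-detection each cell was thinned to 1500 UMIs. Doublets were left in, and leaving out the highest 5% of UMI totals was an alternative.

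The 3 libraries were integrated in R 4.3.3 with Seurat 5.3.0 by anchors, as the study describes for anagen and catagen. The settings were chosen here and are not given by the study: anchors by canonical correlation, 30 components, resolution 0.8 and 20 neighbours. The 36 listed genes among the variable genes were left out, so that 1964 were used. Clusters were named from 82 markers with a row, of 92 listed, where at least 3 markers of a class were raised 1.5-fold, at least 1 was among the 10 leading genes and no second class met the same demands. This naming rule was set after the clusters were seen, so a name that differs from the study's may come from it. The 8 genes and all lists were chosen with earlier results of these data known. Genes of a list were named if at least 2-fold different between catagen or telogen and anagen (at most 5 each way per list), and the 10 genes most like the mean of the 8 were named. Sums and intervals were computed in Python (version 3.11.15, scipy 1.17.1, pandas 2.3.3, numpy 2.4.6) and plotted with matplotlib 3.10.9, and the ratios were tested on simulated data. The thinning was checked on the anagen library, by the mean of thinned *JUN* counts against its expected value. Co-detection was not tested in this way. No genome sequence or promoter table was used, so the planned search for promoter motifs was not run.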

Additional observations from a re-analysis of the deposited data

How the results depend on the processing

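Among the median log2 ratios of the levels of the 8 genes, catagen over anagen changed its sign and the others kept theirs under the alternatives run. The median of catagen over anagen (0.25) became −0.0031 under median-of-ratios scaling, 0.058 with equal weight of clusters, 0.10 as a mean of CPM over cells, 0.21 without the highest 5% of UMI totals, 0.29 with cells of at least the smallest anagen UMI total, 0.33 with at least 1000 genes per cell and 0.33 without the 20 most abundant genes. Telogen over anagen (−1.49) became −1.24 under median-of-ratios scaling, −1.53 with equal weight of clusters and −1.67 as a mean of CPM over cells. Telogen over catagen (−1.70) became −1.20, −1.58 and, without the 20 most abundant genes, −1.79. Median-of-ratios scaling also moved the median of all genes, to −0.21 (catagen over anagen), 0.07 (telogen over anagen) and 0.25 (telogen over catagen). It changed the counts of other immediate early genes past 2-fold: 5 lower and 0 higher in catagen than in anagen, and 7 lower (against 3.13% of all genes) and 1 higher in telogen than in catagen. With at least 50 CPM, 1 was lower in catagen than in anagen. Apart from the 7, these counts have no share of all genes at the same setting beside them, so nothing is read from them.

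The median log2 ratio of the shares of cells was −0.06 (catagen over anagen), −1.27 (telogen over anagen) and −1.16 (telogen over catagen) at 1500 UMIs, 0.031, −1.08 and −1.04 at 3000 UMIs, and −0.52, −0.99 and −0.54 with no thinning. Co-detection over expectation had a median of 1.19 in catagen at 3000 UMIs and 1.53 in telogen with no thinning. Without integration catagen was lower than anagen in 63.3% of 120 pairs of a gene and a cluster, against 54.5% of 176. Leaving out the shallow cluster 1, added after seeing the data, gave medians of 0.23, −1.48 and −1.69. No paired analysis was possible because each stage has 1 library and the labels give no replicate numbers; for the same reason no library could be left out. Depth limited the shares, most for *MAFF* in telogen, seen in 184 thinned cells, and levels also moved with depth within clusters, by log2 ratios of −0.40 to 0.37 of shallower over deeper cells. Of the values for single genes and for the other lists, 154 stayed close to the main value and 128 moved, none of them across 0 from a 2-fold difference. Why values moved was not tested.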
